A study of Mus musculus with 10 samples.

Results

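Choroid plexus cells were examined in single-cell sequencing of mouse hippocampus, as all cells to which the authors' deposited annotation gives the class name Choroid. They numbered 5004 of 68914 annotated cells (7.26%), the fifth largest of 16 classes, and the annotation divides them into the clusters numbered 5, 12 and 18. The deposited table holds names and map positions and no gene values, so the class name could not be checked against Ttr and Folr1, the marker genes of these cells, and no gene was tested. Libraries came from male wild-type C57BL/6 mice, 11 weeks old, whose hippocampi on both sides were injected 3 days earlier. The injection held vehicle (4 libraries), full-length neurofilament light chain at 1 mg/ml (FL-NfL, 3 libraries) or the coiled-coil form of the protein at 1 mg/ml (CC-NfL, 3 libraries). Axons are filled with neurofilaments, and NfL is the lightest of their subunits; the study put the protein into the hippocampus and asked what cells there do. Since there was no control with another protein, effects of NfL and of protein injection in general cannot be told apart. After dissociation with actinomycin D, which blocks transcription, live cells were sorted and loaded for 3′ library preparation.

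The choroid plexus is a fold of tissue that hangs into the brain ventricles, and in the lateral ventricle it lies beside the hippocampus without being part of it. Its epithelium secretes cerebrospinal fluid and forms the barrier between the blood of its leaky capillaries and that fluid. Ttr encodes transthyretin, a carrier of thyroid hormone that this epithelium makes in large amounts, and Folr1 encodes a folate receptor that serves folate transport into the fluid.

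Annotated cells numbered 3150 to 6025 in the 6 libraries of the batch that the labels name b1 and 8800 to 14141 in the 4 of b2. Barcodes without annotation made up 42.0% to 71.3% of a library in b1 and 17.3% to 20.7% in b2. Every group had libraries in both batches, but FL-NfL and CC-NfL had 1 each in b2. Choroid cells numbered 114 to 1360 per library, and vehicle library 3 and CC-NfL library 3 together gave 50.8% of them. Barcode sequences of 75 choroid cells also occurred in an annotated cell of another library, as did those of 1071 annotated cells in all (1.55%), and 4 choroid cells shared theirs with a choroid cell of another library.

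Choroid cells formed 3 separate islands on the authors' t-SNE map, a plane on which cells with similar expression are placed close together and distances between islands carry no scale. Cells were joined to an island when they lay within 1 map unit of a cell with at least 10 cells in that radius, counting itself. The upper island held 3358 choroid cells, namely 3225 of cluster 5 and all 133 of cluster 12, which formed a thin spur at its edge. The middle island held 671 cells, 636 of cluster 18 and 35 of cluster 5. The lower island held 975 cells, all of cluster 18. The smallest gap between islands was 13.1 map units, between the middle and the lower one, whereas the nearest choroid cell lay at a median of 0.0611 map units. Each island held cells of all 10 libraries. The annotation thus counts cells of 2 separate islands as 1 cluster. Of 32 clusters in the annotation, 3 had at least 10% of their cells in a second island, and cluster 18 had the highest such share at 39.5%, ahead of the neuron cluster 7 at 35.0% and the astrocyte cluster 26 at 28.6%.

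**Figure D1:**
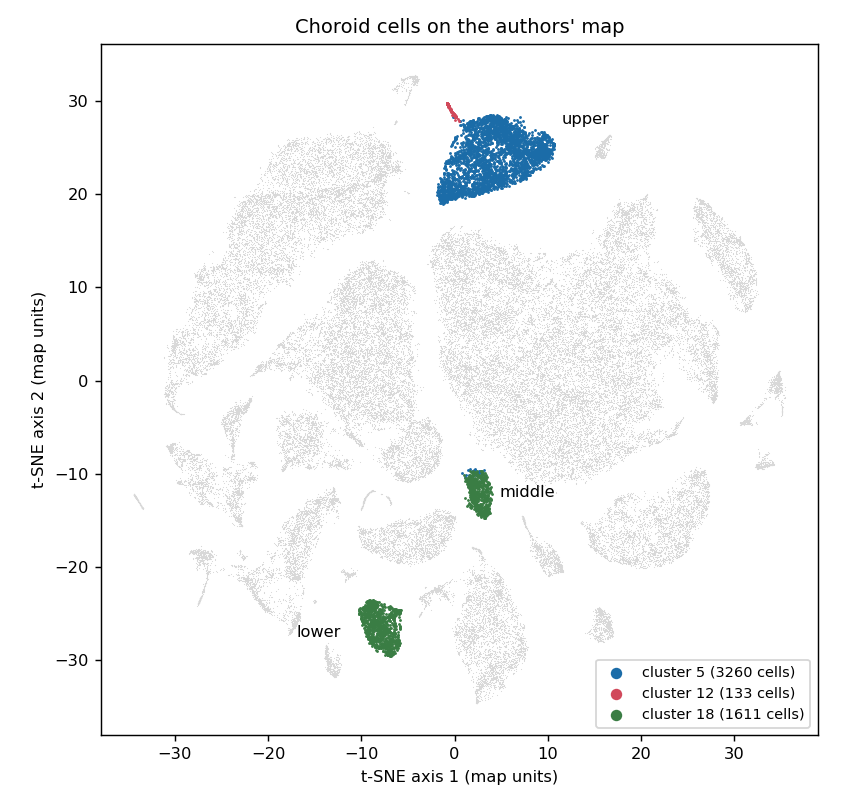
Position of every annotated cell on the authors' t-SNE map (axes in map units without scale), with cells of other classes in grey and choroid cells coloured by cluster. Cluster 18 lies in the middle and the lower island, and cluster 12 is a spur of the upper island.

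All 30 nearest neighbours on the map belonged to the choroid class for each of the 5004 choroid cells. The same held for every cell of 7 other classes (BMEC, neurons, OPC, oligodendrocytes, Reelin neurons, VECA and VLMC, as the annotation names them), so it was not peculiar to the choroid class. Within the class, neighbours carried the cell's own cluster number in 99.2% of cases for cluster 5, 98.0% for cluster 12 and 98.8% for cluster 18. The neighbours of cluster 12 cells that were not of cluster 12 (1.95%) were of cluster 5. Clusters and map were made from the same expression values, so these figures describe the annotation and test nothing.

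The share of choroid cells varied widely between libraries of every group. In order, the class made up 2.87% of annotated cells in FL-NfL library 1, 2.93% in vehicle library 4, 3.28% in CC-NfL library 1, 3.47% in vehicle library 2 and 3.60% in FL-NfL library 3. The other libraries were CC-NfL 2 with 7.80%, CC-NfL 3 with 9.62%, FL-NfL 2 with 11.1%, vehicle 3 with 12.1% and vehicle 1 with 15.4%. No library lay between 3.60% and 7.80%, and each group and each batch had libraries on both sides of this gap. Neighbours in the lower part of this order had overlapping exact 95% intervals (2.38% to 3.42% in the lowest library, 3.27% to 3.96% in FL-NfL library 3), which cover counting error alone. The highest share was 5.38 times the lowest. Around the group and batch means, the SD of the log2 odds of the choroid class was 1.24, the fifth highest of 16 classes, whose median was 0.675. Because shares of a library sum to a whole, fewer choroid cells and more cells of other classes cannot be told apart.

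FL-NfL against vehicle asked whether the whole protein changes the share of choroid cells. Its mean was 8.49% ± 6.26 (SD) in the 4 vehicle libraries and 5.87% ± 4.58 (SD) in the 3 FL-NfL libraries, and the ranges overlapped. The log2 odds ratio was -0.49 (SE 0.85, 95% interval -2.44 to 1.45, adjusted p = 0.993) in limma's moderated test with group and batch as terms, adjusted by the Benjamini-Hochberg method over 16 classes. Exact permutation of the percentages had a p of 0.543, or 0.611 with splits kept within batch, with 0.0286 as the smallest p that 4 against 3 libraries allow over all splits. Within b1, vehicle averaged 9.45% and FL-NfL 7.01%. Within b2, vehicle averaged 7.52%, and the 1 FL-NfL library had 3.60%. Limma called 2 of 16 classes in this contrast (12.5%), and the choroid class was not among them. Without vehicle replicate 1, which had the highest share, the estimate was 0.09.

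CC-NfL against vehicle put the same question for the coiled-coil form. Choroid cells made up 6.90% ± 3.26 (SD, n = 3) after CC-NfL, with all 3 libraries inside the vehicle range of 2.93% to 15.4%. The log2 odds ratio was -0.11 (SE 0.85, 95% interval -2.06 to 1.83, adjusted p = 0.968, limma), and the exact permutation p was 0.714 over all splits and 0.722 within batch. In batch b1 CC-NfL averaged 5.54%, against 9.45% after vehicle, and its 1 library in b2 had 9.62%, against 7.52%. Limma called 0 of 16 classes here (0.0%), with 3 at an unadjusted p under 0.05 and 0 calls by a quasi-binomial model. The estimate turned positive on removal of vehicle replicate 1 (0.47), vehicle replicate 3 (0.21) or CC-NfL replicate 1 (0.39).

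Between the proteins (FL-NfL against CC-NfL) the estimate for the choroid class was -0.38 (SE 0.90, 95% interval -2.44 to 1.68, adjusted p = 0.918, limma). Limma called 0 of 16 classes in this contrast (0.0%), with 1 at an unadjusted p under 0.05 and 0 calls by the quasi-binomial model. The exact permutation p was 0.900, and 3 against 3 libraries allow no p below 0.100. The estimate rose to 0.06 without FL-NfL replicate 1 and to 0.11 without CC-NfL replicate 3. With both proteins together (6.39% ± 3.60, SD, n = 6) against vehicle, the log2 odds ratio was -0.30 (SE 0.72, 95% interval -1.95 to 1.35, adjusted p = 0.884, limma), in a contrast where 12.5% of classes were called. The choroid groups overlapped in every contrast, while 12.5% of classes had groups apart for each protein against vehicle, 18.8% between the proteins and 6.25% for both against vehicle. It was 0.28 without vehicle replicate 1 and 0.02 without vehicle replicate 3. Every one of these intervals holds both a fall by 1.95 and a rise by 1.35 on the log2 scale, so the data do not show that the share of choroid cells stayed the same.

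**Figure D2:**
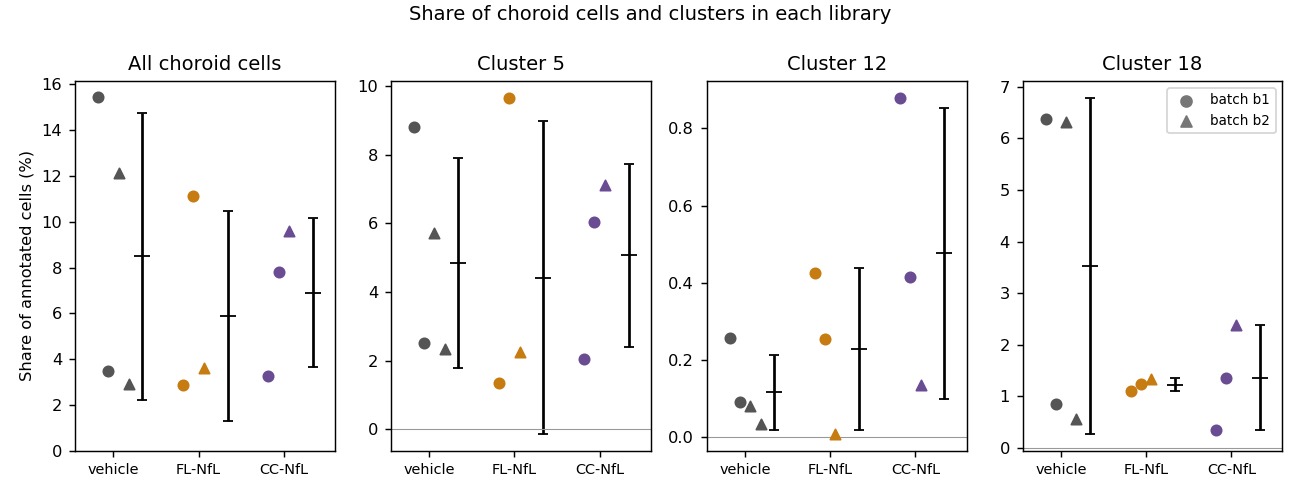
Share of annotated cells (%, y axis) taken by the choroid class and by each of its clusters, by group (x axis). Each point is a library (circles b1, triangles b2) and the bars show the mean ± SD. Vehicle libraries span 2.93% to 15.4% for the class, a range that holds all CC-NfL libraries.

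Cluster 5 was the main body of the class, with 3260 cells, 65.1% of all choroid cells. After vehicle it made up 8.80%, 2.52%, 5.71% and 2.34% of annotated cells in libraries 1 to 4. In FL-NfL libraries its share was 1.35%, 9.65% and 2.25%, and in CC-NfL libraries 2.06%, 6.02% and 7.11%. High and low libraries occurred in every group. The ranges overlapped for each of the 3 clusters in every contrast, while of 31 clusters 6.45% had groups apart for FL-NfL, 16.1% for CC-NfL, 9.68% between the proteins and 3.23% for both against vehicle. Limma, over 31 clusters, put the estimate for FL-NfL at -0.45 (SE 0.87, adjusted p = 0.880) and that for CC-NfL at 0.09 (SE 0.87, adjusted p = 0.975). Limma called 6.45% of clusters after FL-NfL and 0.0% after CC-NfL. For CC-NfL, 3 clusters passed 0.05 without adjustment, and no cluster was called by the quasi-binomial model. Neither estimate kept its sign when single libraries were left out, being 0.18 for FL-NfL without FL-NfL replicate 1 and 0.05 without vehicle replicate 1. For CC-NfL it was -0.51 without CC-NfL replicate 3, -0.26 without vehicle replicate 2, -0.18 without vehicle replicate 4 and -0.12 without CC-NfL replicate 2.

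Cluster 18 held 1611 cells, 32.2% of the class. Its share of annotated cells was 6.38% and 6.32% in vehicle libraries 1 and 3, and 0.851% and 0.557% in vehicle libraries 2 and 4. After FL-NfL it was 1.09%, 1.24% and 1.34% (1.22% ± 0.126, SD, n = 3), a narrow range beside that of vehicle (3.53% ± 3.26, SD, n = 4). After CC-NfL it was 0.347%, 1.36% and 2.38%. All 6 NfL libraries lay below both high vehicle libraries, and 5 of them lay above both low vehicle libraries. The log2 odds ratio was -0.74 (SE 1.06, 95% interval -3.17 to 1.69, adjusted p = 0.833) after FL-NfL, -0.96 (SE 1.06, 95% interval -3.39 to 1.47, adjusted p = 0.701) after CC-NfL and -0.85 (SE 0.90, adjusted p = 0.590) for both proteins, in limma, in contrasts where 6.45%, 0.0% and 3.23% of 31 clusters were called. Without vehicle replicate 1 these were 0.09, -0.14 and -0.02. Without vehicle replicate 3, the other high library, they were -0.27, -0.49 and -0.38. Without vehicle replicate 4, the lowest vehicle library, they were -1.46, -1.68 and -1.57. The exact permutation p for both proteins was 0.157 over all splits and 0.178 within batch.

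Cluster 12 was small, with 133 cells (2.66% of the class), and had the highest estimates of the 3 clusters after CC-NfL. CC-NfL libraries 1 to 3 held 38, 25 and 19 of these cells, FL-NfL libraries 18, 8 and 1, and vehicle libraries 10, 3, 8 and 3. As a share of annotated cells that averaged 0.116% ± 0.0978 (SD, n = 4) in vehicle, 0.230% ± 0.210 (SD, n = 3) in FL-NfL and 0.476% ± 0.376 (SD, n = 3) in CC-NfL libraries. CC-NfL libraries 1 and 2, at 0.879% and 0.415%, lay above every vehicle library, and CC-NfL library 3, at 0.134%, lay below the highest vehicle library at 0.258%. The log2 odds ratio of CC-NfL against vehicle was 1.47 (SE 0.74, 95% interval -0.23 to 3.17, adjusted p = 0.283 in limma) and the exact permutation p was 0.0571 over all splits, 0.229 after adjustment over the class and its 3 clusters, and 0.0556 within batch. Within batch, each protein alone against vehicle has 18 splits, so the exact permutation could give no p below 0.0556 and could not pass 0.05. Both proteins together against vehicle have 90 splits within batch, and there the exact permutation p was 0.0667 (0.171 over all splits). The log2 odds ratio for both was 0.63 (SE 0.63, adjusted p = 0.590 in limma). FL-NfL against CC-NfL gave -1.69 (SE 0.79, 95% interval -3.49 to 0.11, adjusted p = 0.585 in limma), which was -0.71 without FL-NfL replicate 3, the library with 1 such cell. For that contrast limma called 0.0% of 31 clusters, with 1 at an unadjusted p under 0.05 and 0 calls by the quasi-binomial model. FL-NfL against vehicle gave -0.22 (SE 0.74, adjusted p = 0.925, limma), although the mean percentage was higher after FL-NfL, and the estimate was 0.89 without FL-NfL replicate 3 and 0.15 without vehicle replicate 3. Without vehicle replicate 2 the CC-NfL estimate was 0.93.

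Cluster 12 had a higher mean in b1 than in b2, a difference that did not pass the test after adjustment. It made up 0.387% ± 0.271 (SD, n = 6) of annotated cells in b1 and 0.0648% ± 0.0554 (SD, n = 4) in b2, with an exact permutation p of 0.0333, 0.133 after adjustment over the class and its clusters. Within b1 the mean was 0.175% for vehicle, 0.340% for FL-NfL and 0.647% for CC-NfL, and within b2 0.0580%, 0.00883% and 0.134%, both NfL values being from 1 library. CC-NfL was thus highest in both batches, and FL-NfL was above vehicle in b1 and below it in b2. The batches also differed in annotated cells and in the share of barcodes without annotation, as given above, and their part in these values was not tested. The choroid class as a whole made up 7.33% ± 5.13 in b1 and 7.07% ± 4.51 in b2 (exact permutation p = 0.957), and the p for clusters 5 and 18 was 0.700 and 0.581.

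The make-up of the class, taken as shares of choroid cells, separates composition from the size of the class. Cluster 5 took 47.1% to 79.8% of choroid cells in vehicle libraries (64.2% ± 14.9, SD, n = 4). Its FL-NfL mean was 65.4% ± 19.9 and its CC-NfL mean 71.3% ± 7.63 (SD, n = 3 each). Cluster 18 averaged 34.3% ± 15.3 in vehicle, 28.8% ± 15.3 in FL-NfL and 17.6% ± 7.07 in CC-NfL libraries. Its share was 41.3%, 24.6%, 52.2% and 19.0% in vehicle libraries 1 to 4, 38.0%, 11.1% and 37.3% in those of FL-NfL, and 10.6%, 17.4% and 24.7% in those of CC-NfL. CC-NfL libraries 1 and 2 lay below every vehicle library, and CC-NfL library 3 did not. Against the vehicle library of the same number, cluster 18 took less of the class in every CC-NfL and every FL-NfL library. Vehicle library 4 has no NfL library of its number, and its 19.0% lay below CC-NfL library 3 and FL-NfL library 3 of the same batch. FL-NfL libraries 1 and 3 also lay above vehicle library 2. Against the same number, cluster 12 took more of annotated cells in every CC-NfL library and in FL-NfL libraries 1 and 2, but less in FL-NfL library 3. Such comparisons were not made for clusters of other classes, so how often other clusters come out alike is not known. They use the same vehicle libraries for both proteins, and whether the numbers mark pairs was not tested. The largest cluster 12 shares were 26.8% in CC-NfL library 1 (exact 95% interval 19.7% to 34.8%) and 14.9% in FL-NfL library 1 (9.06% to 22.5%), both among the libraries with the fewest choroid cells (142 and 121), while the other 8 had 0.245% to 5.32%.

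For CC-NfL against vehicle the log2 odds ratio within the class was -1.17 for cluster 18 (SE 0.73, 95% interval -2.86 to 0.51, adjusted p = 0.295), 1.69 for cluster 12 (SE 0.98, 95% interval -0.56 to 3.93, adjusted p = 0.267) and 0.41 for cluster 5 (SE 0.78, adjusted p = 0.790), in limma over 22 clusters of classes with more than 1 cluster. The corresponding values for FL-NfL were -0.36 (SE 0.73), 0.28 (SE 0.98) and 0.16 (SE 0.78), with adjusted p-values of 0.762, 0.839 and 0.839 in limma. Between FL-NfL and CC-NfL they were 0.82 (SE 0.78), -1.41 (SE 1.03) and -0.25 (SE 0.83), each with an adjusted p of 0.840 in limma. Limma called 0 of 22 clusters (0.0%) in each of these contrasts. At an unadjusted p under 0.05 there were 2 clusters for FL-NfL, 8 for CC-NfL and 0 between the proteins, none of them choroid clusters, and the quasi-binomial model called 0, 6 and 0. The groups overlapped for every choroid cluster within the class. Of all 22 clusters, 9.09% had groups apart for FL-NfL, 27.3% for CC-NfL, 4.55% between the proteins and 9.09% for both proteins against vehicle. Shares within a class sum to a whole and are not independent. With the replicate number as a block, which leaves vehicle library 4 without a partner, the CC-NfL estimate was -1.63 (SE 0.55) for cluster 18 and 2.08 (SE 0.77) for cluster 12, each with an adjusted p of 0.0610 in limma. Without CC-NfL replicate 1 the cluster 12 estimate after CC-NfL was 0.91, and without vehicle replicate 4 that of cluster 18 was -1.63. After FL-NfL the cluster 18 estimate was 0.29 without FL-NfL replicate 2 and 0.01 without vehicle replicate 1. That of cluster 12 was -0.69 without FL-NfL replicate 1 and -0.22 without vehicle replicate 1, and that of cluster 5 was -0.62 without FL-NfL replicate 2, -0.18 without vehicle replicate 3 and -0.07 without vehicle replicate 1. Between the proteins, cluster 5 stood at 0.44 without FL-NfL replicate 1. Cluster 12 there ran from -2.45 without FL-NfL replicate 1 to -0.57 without CC-NfL replicate 1, and cluster 18 stood at 0.28 on leaving out FL-NfL replicate 1 and at 1.51 on leaving out FL-NfL replicate 2.

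**Figure D3:**
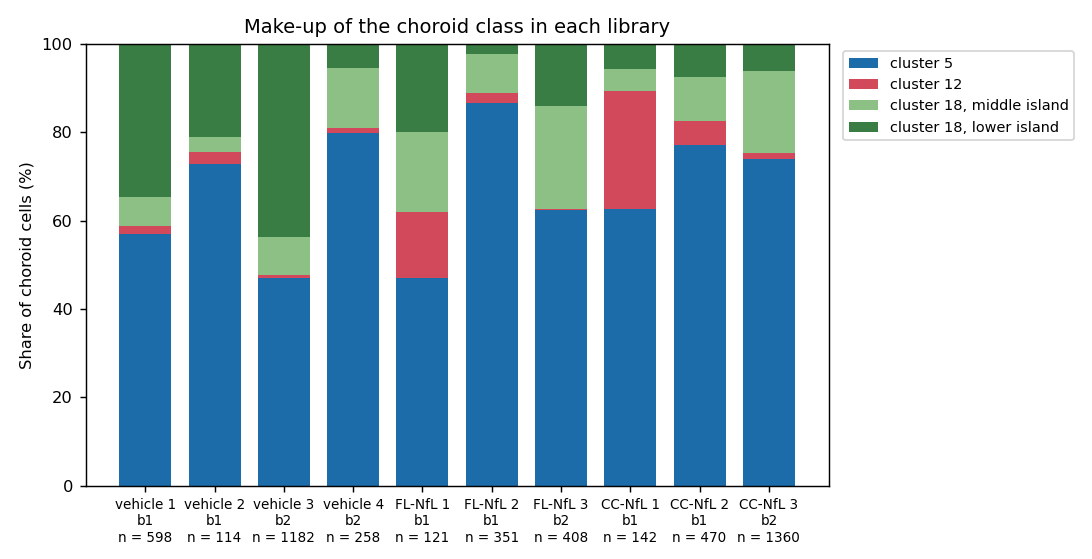
Make-up of the choroid class in each library, as stacked shares of its choroid cells (%, y axis), with the batch and the number of choroid cells under each bar. Cluster 18 is split by map island. Its lower island takes 34.6%, 21.1%, 43.7% and 5.43% of choroid cells in vehicle libraries 1 to 4, and 2.28% to 19.8% in the NfL libraries.

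**Figure D4:**
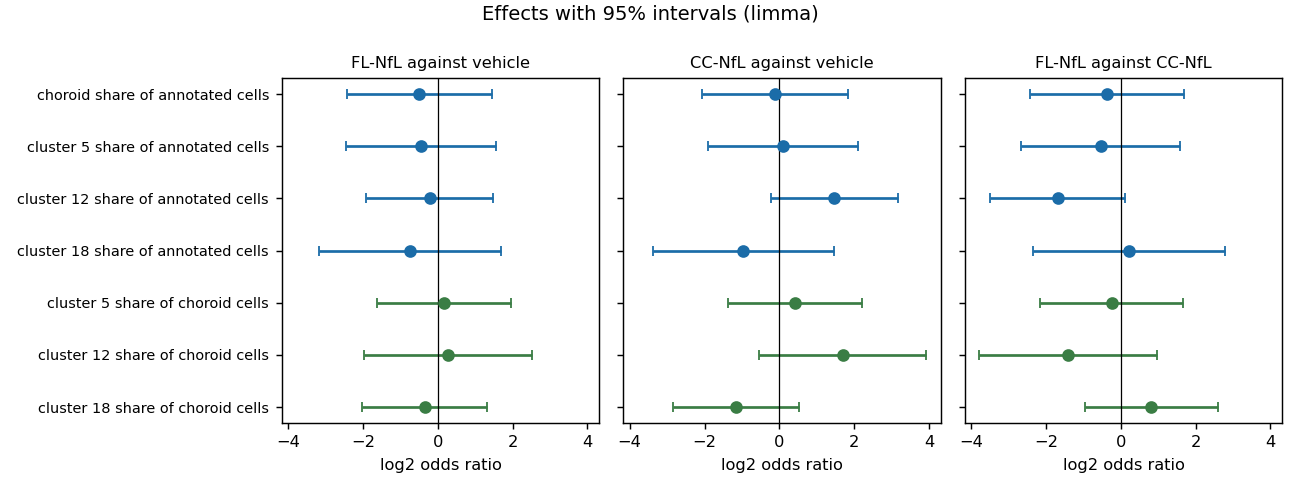
Log2 odds ratios (x axis) of the class and its clusters in 3 contrasts, with 95% intervals from limma. Shares of annotated cells are blue and shares of choroid cells green. Every interval includes 0.

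The islands of cluster 18 stood in a like ratio in 3 vehicle libraries and in other ratios elsewhere. Groups were not tested on this measure, which was chosen after the map had been seen, and its values are a description. The lower island held 83.8% (exact 95% interval 78.6% to 88.2%), 85.7% (67.3% to 96.0%) and 83.6% (80.5% to 86.5%) of cluster 18 cells in vehicle libraries 1 to 3, and 28.6% (16.6% to 43.3%) in vehicle library 4. In FL-NfL libraries it held 52.2%, 20.5% and 37.5%, and in CC-NfL libraries 53.3%, 42.7% and 24.4%. The first 3 vehicle libraries thus lay above all 6 NfL libraries, whereas vehicle library 4 lay among them. Intervals are wide where cluster 18 was small, as in CC-NfL library 1 with 15 cells (26.6% to 78.7%).

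As a share of annotated cells, the lower island made up 5.34%, 0.729%, 5.29% and 0.159% in vehicle libraries 1 to 4, and 0.185% to 0.581% in the 6 NfL libraries. The middle island made up 0.122% to 1.08% in vehicle, 0.521% to 1.05% in FL-NfL and 0.162% to 1.95% in CC-NfL libraries. The upper island ranged from 2.36% to 9.06% in vehicle, 1.78% to 9.84% in FL-NfL and 2.94% to 7.09% in CC-NfL libraries. FL-NfL library 2 had the highest upper island share of all libraries, at 9.84%, and a lower island share of 0.254%. Between its highest and lowest library, the lower island differed 33.6-fold, the middle island 16.1-fold and the upper island 5.54-fold. Leaving out the lower island, the remaining choroid cells made up 5.61% ± 3.55 (SD, n = 4) of annotated cells in vehicle, 5.43% ± 4.75 (SD, n = 3) in FL-NfL and 6.45% ± 3.04 (SD, n = 3) in CC-NfL libraries.

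**Figure D5:**
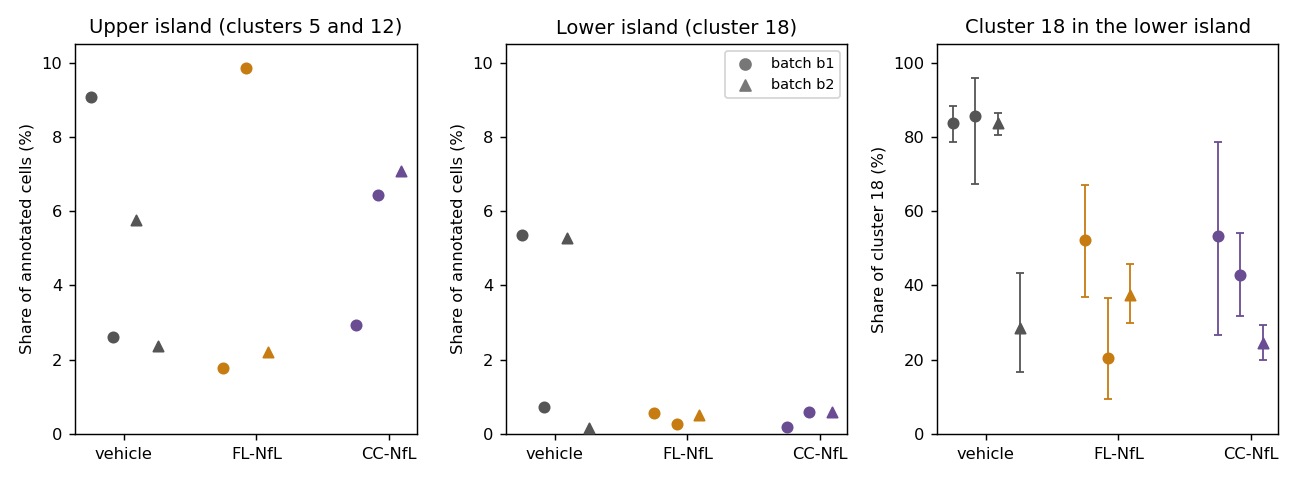
Share of annotated cells (%, y axis) in the upper and the lower island, and share of cluster 18 (%) in the lower island with exact 95% intervals, for each library by group (circles b1, triangles b2). The lower island takes 5.34% and 5.29% of cells in 2 vehicle libraries and at most 0.729% in the other libraries.

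Libraries were not evenly mixed within the class on the map, and pairs of libraries from the same batch lay closer together than pairs from different batches. For each pair of libraries, the share of the other library among the 30 nearest choroid neighbours was divided by its expected share and averaged on the log2 scale. Pairs of the same batch averaged 0.62, pairs of different batches -1.03, and a library with itself 1.08. The mean for pairs of the same group minus that for pairs of different groups was -0.048, so pairs of the same group were not closer on average. Over the 1080 regroupings of libraries within batch this difference averaged -0.29. The observed value lay 0.24 above that mean, here called the excess (one-sided exact permutation p = 0.0148, 0.0444 after adjustment over the class and clusters 5 and 18). Within b1, pairs of the same group averaged 0.83 and other pairs 0.77. The 1 pair of the same group in b2 had 0.20 against 0.21 for the others, and across batches pairs of the same group had -0.78 and other pairs -1.15. For the class, the measure also counts how libraries divide over the islands. Vehicle libraries 1 and 3, the richest in the lower island, ranked 1 of 24 pairs across batches for the class (-0.17). Within cluster 5 they ranked 16 of 24 (-1.39). The part of the division over islands in the excess was not tested. The excess for the class was 0.13 without vehicle replicate 3 (one-sided exact permutation p = 0.122) and 0.23 when FL-NfL replicate 3 was left out (0.0593). It was 0.16 on leaving out CC-NfL replicate 1 (0.103) and 0.11 on leaving out CC-NfL replicate 2 (0.197), each above the threshold of 0.05. For cluster 5 the excess was 0.15 (one-sided exact permutation p = 0.0370, 0.0556 after adjustment) and for cluster 18 it was 0.20 (0.124, likewise 0.124 after adjustment). The difference itself was -0.21 for cluster 5 and 0.072 for cluster 18. With 1 library left out at a time, cluster 5 had a p under 0.05 in 3 of 10 cases (without vehicle replicate 1, vehicle replicate 2 or CC-NfL replicate 3), while cluster 18 passed without vehicle replicate 4 (excess 0.42, one-sided exact permutation p = 0.0333).

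Set against the other 15 classes, the choroid class varied most closely with VECA, a vascular class whose name the annotation does not spell out. This class was picked out after its values were seen. The SD of the log2 ratio of VECA to choroid cells over the 10 libraries was 0.60, the lowest of 15 classes and the fourth lowest of all 120 pairs of classes. It was followed by pericytes, the contractile cells of capillary walls, at 0.83, and was 1.03 for ependymal cells, which line the ventricles. Per 100 choroid cells, VECA numbered 8.53, 4.39 and 9.14 in vehicle libraries 1 to 3, 4.13, 5.41 and 13.2 in FL-NfL libraries, and 4.23, 5.53 and 4.85 in CC-NfL libraries. Vehicle library 4 held 31 VECA beside 258 choroid cells. The ratios of vehicle library 2, FL-NfL library 1 and CC-NfL library 1 rest on only 5, 5 and 6 VECA. These ratios spanned 4.13 to 13.2, while the share of VECA among annotated cells spanned 0.118% to 1.32%. Ependymal cells numbered 5.96 to 44.6 per 100 choroid cells, with the most in vehicle library 4, FL-NfL library 1 and FL-NfL library 3. Both classes of a pair share the depth and the dissection of their library.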

How the data were processed

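Cell Ranger 6.0.1 and the mouse build GRCm38 are named in the submitters' processing notes. The deposited table lists 108266 barcodes, and for 68914 of them the authors give condition, batch, cluster, class and t-SNE position, with no gene values. How they filtered, clustered, named and mapped cells is not given in the sources used here, nor is how they treated doublets, and no doublets could be called from a table without gene values. Condition and batch matched the labels in every annotated cell, and 39352 barcodes without annotation were left out.

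The library, not the cell, was the replicate, and the series' design counts its groups in mice. Limma 3.58.1 (R 4.3.3) was run on log2((cells + 0.5) / (other cells + 0.5)), with terms for group and batch, on 16 classes, on 31 clusters averaging 10 or more cells, and on 22 clusters within their class. P-values were adjusted by Benjamini-Hochberg, with calls under 0.05. The fit was tested on simulated data with no batch effect and a smaller spread between libraries than the choroid clusters had. Around the group and batch means, the SD of the log2 odds was 1.26, 1.05 and 1.56 for clusters 5, 12 and 18. The simulation thus does not show how the fit performs at this spread. Intervals on single libraries are exact (Clopper-Pearson, 95%) and cover counting error alone. Islands were found with DBSCAN in scikit-learn 1.9.0, after the map had been seen. The members, clusters and tests were chosen with earlier results of these data known. The text names the class, its 3 clusters and every library, and other classes or clusters where a result turned on them.

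Groups share replicate numbers. Deviations from the group means over 31 clusters were correlated between libraries. For FL-NfL with CC-NfL, libraries of the same number had 0.62, 0.67 and 0.49, and those of other numbers -0.54 to -0.09. For vehicle with CC-NfL, the same number had 0.39, 0.42 and 0.24, and other numbers -0.48 to 0.40. For vehicle with FL-NfL, the same number had 0.18, 0.07 and 0.24, and other numbers -0.56 to 0.41. Libraries of the same number thus stood apart only for FL-NfL with CC-NfL, and whether the numbers mark pairs was not tested. Planned correlations of choroid share with other classes were not made, because the libraries fell into separate sets of 5 by choroid share. Mixing of cluster 12 on the map was not examined, since a library held as few as 1 of its cells.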

Additional observations from a re-analysis of the deposited data

Results flagged for a closer look

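Of 11 measures checked for a vehicle library standing apart from the other 3, 1 had such a library. The lower island held 28.6% of cluster 18 cells in vehicle library 4 and 83.6% to 85.7% in the other vehicle libraries, so that 0.964 of the whole range lay between it and the nearest of them. Since the measure was chosen after the map had been seen, this is a screen for single libraries and not a test, and chance alone marks about 1 in 20 such groups. Cluster 18 had 49 cells in that library, and the exact interval of its value was 16.6% to 43.3%.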

How the results depend on the processing

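Across 28 estimates for the class and its clusters and 560 alternative settings, limma or the quasi-binomial model called 0, and the lowest adjusted p was 0.0610, for clusters 12 and 18 within the class after CC-NfL with the replicate block. The block changed no call. The sign turned in 53 settings of 18 estimates, and the cause was not tested. Estimates with a turned sign follow, as log2 odds ratios except where the arcsine scale or the centred log ratio is named. Without the 3 libraries numbered 1, the class had 0.35 for FL-NfL, 0.82 for CC-NfL and 0.59 for both proteins against vehicle. There, cluster 5 had 0.50 for FL-NfL and 0.75 for both, cluster 18 had 0.42 for CC-NfL, -0.48 for FL-NfL against CC-NfL and 0.18 for both, and cluster 5 within the class had 0.079 between the proteins. In b1 alone, the class had 0.18 between the proteins, cluster 12 had 1.02 for FL-NfL, and cluster 5 had -0.45 for CC-NfL, 0.062 between the proteins and 0.0074 there within the class. Cluster 12 for FL-NfL was 0.0041 on the arcsine scale, 0.34 in the quasi-binomial model and 0.22 without the batch term. Cluster 5 for CC-NfL was -0.18 with the replicate block and -0.10 as a centred log ratio, and cluster 18 between the proteins was -0.50 in the quasi-binomial model.

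With 1 library left out at a time, the class ran from -1.12 to 0.088 for FL-NfL, -0.67 to 0.47 for CC-NfL, -1.06 to 0.11 between the proteins and -0.76 to 0.28 for both. Cluster 5 ran from -1.29 to 0.18, -0.51 to 0.68, -1.45 to 0.14 and -0.57 to 0.31 in the same order. Cluster 12 for FL-NfL ran from -0.76 to 0.89. Cluster 18 ran from -1.46 to 0.086 for FL-NfL, -1.68 to -0.14 for CC-NfL and -0.55 to 0.85 between the proteins. Within the class, FL-NfL ran from -0.62 to 0.80 for cluster 5, -0.69 to 1.08 for cluster 12 and -0.85 to 0.29 for cluster 18. Cluster 5 there ran from -1.10 to 0.44 between the proteins and -0.073 to 0.66 for both. On the map, the excess of the same-group difference over its mean in the regroupings ran from 0.11 to 0.33 for the class. It ran from 0.0082 to 0.35 for cluster 5 and from 0.12 to 0.42 for cluster 18. Joining distances of 0.75, 1.5 and 2 map units, tried after the map had been seen, left every choroid cell in its island. Cluster 12 could not be fitted without the 3 libraries numbered 1, its mean then being under 10 cells. Its 133 cells over 10 libraries limit its precision, and with 3 or 4 libraries a group, intervals are wide for every measure.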
